A study of Mus musculus with 5 samples.

Results

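A set of 10 genes of Wnt signalling was followed across sorted liver cell libraries. The listed genes were the Wnt ligands Wnt2, Wnt4, Wnt5a and Wnt9b, the R-spondins Rspo1 and Rspo3, the secreted inhibitors Sfrp1 and Wif1, and the intracellular genes Ctnnb1 and Axin2, making 10 of the 31053 genes in the count tables. They were taken as a list, which was chosen with earlier results of these data known. Each was measured as unique molecular identifiers (UMIs) per 1000000 UMIs (CPM) in the whole of each of 5 single-cell libraries and in its mesenchymal and endothelial cells. A cell was called mesenchymal when Dcn, Col3a1 and Colec11 together made up 20 or more per 10000 of its UMIs, and endothelial when it held a UMI of 3 or more of the 5 genes Pecam1, Cdh5, Kdr, Stab2 and Ptprb.

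Wnt proteins are secreted lipid-bearing ligands that bind Frizzled and LRP5/6 receptors and keep β-catenin (Ctnnb1) from being degraded, so that it can switch on genes with TCF/LEF factors. R-spondins strengthen that signal by clearing the ligases that remove Frizzled from the membrane, while SFRP and WIF proteins hold Wnt ligands away from their receptors. In liver, endothelial Wnt2, Wnt9b and Rspo3 are known for keeping the genes of the pericentral hepatocytes on, and Axin2, a brake on the pathway, is itself a common target gene.

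All mice were males carrying Rosa26mTmG and Col1a1-Cre on a C57BL/6J background, so a Col1a1+ cell by sorting was one in which the Col1a1 promoter driving Cre had been active at some time. DEN+WAD mice had diethyl nitrosamine, a liver carcinogen, at 10 mg/kg at 2 weeks of age, and then from 6 weeks of age a liquid Western diet with ethanol at 3.5% by volume for 5 months, while chow mice had saline and chow. Cells were sorted by vitamin A (VitA), whose fluorescence marks hepatic stellate cells (HSC), and by the reporter into VitA+Col1a1+ and VitA-Col1a1+ cells of both kinds of liver, and 1 more DEN+WAD library was labelled VitA-Col1a1-. Each group was 1 library of an unstated number of mice, so differences below have counting error only and no replicate check.

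The VitA+Col1a1+ libraries held 10481 cells for DEN+WAD and 259 for chow, the VitA-Col1a1+ libraries 2729 and 668, and the library labelled VitA-Col1a1- 9870, with 6145748 to 149936344 UMIs in a library. Mesenchymal cells numbered 10257 and 247 in the VitA+Col1a1+ libraries, and 2212 and 615 in the VitA-Col1a1+ libraries. The library labelled VitA-Col1a1- had 5196, and median depths of mesenchymal cells were 10920.5 to 24513 UMIs. Endothelial cells numbered 221 and 12, 470 and 37, and 3098, of which 44 and 3, 30 and 1, and 443 also met the mesenchymal rule, the last with a median of 15540 UMIs. The 8 endothelial genes outside the rule were each at 5 CPM or more in every endothelial class and summed to 3963 to 8818 CPM there, against 375 to 859 CPM in mesenchymal cells. Macrophage genes summed to 4142 CPM in the endothelial cells of the library labelled VitA-Col1a1- and to under 1 CPM in those of the other libraries. RNA of Col1a1 went against that library's label: its mesenchymal cells held 1892 CPM of Col1a1, against 1123 CPM in VitA-Col1a1+ DEN+WAD and 307.9 CPM in VitA+Col1a1+ DEN+WAD. Between libraries 48 of 23959 barcodes were shared (0.200%).

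The TCF/LEF core CTTTGA or CTTTGT was looked for on both strands, since Axin2 is a target gene as well as a member. RefSeq promoter windows of GRCm38.p6, 250 bases before to 50 after a start, were at hand for 7 of the 10 genes, and none of those 8 windows held either hexamer, against 31.2% of 32851 windows of all genes. The stretch before the annotated start of Axin2, on the plus strand at chr11:108920099-108920348, is shown because Axin2 is the member whose RNA is read as a target. It is in lower case throughout, as capitals would mark a match:
Axin2: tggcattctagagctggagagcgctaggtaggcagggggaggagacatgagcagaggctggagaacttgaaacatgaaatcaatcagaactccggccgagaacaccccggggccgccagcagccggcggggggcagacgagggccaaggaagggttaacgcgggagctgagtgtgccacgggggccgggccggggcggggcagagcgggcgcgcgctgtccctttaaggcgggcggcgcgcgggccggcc
A match farther away or within the gene would not be seen in this window.

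Rspo3, the R-spondin of liver mesenchyme and central veins, was counted in the mesenchymal cells of all 5 libraries and was lower in VitA- than in VitA+ libraries. Its gene lies on the minus strand of chromosome 10 at 29452416-29535867. In mesenchymal cells Rspo3 was at 1033 CPM (95% counting interval, 1008 to 1059) in VitA+Col1a1+ chow, 960.4 CPM (955 to 965) in VitA+Col1a1+ DEN+WAD, 528.1 CPM (521 to 535) in VitA-Col1a1+ DEN+WAD, 345.6 CPM (341 to 350) in the library labelled VitA-Col1a1- and 81.3 CPM (76.7 to 86.1) in VitA-Col1a1+ chow. The 5 intervals did not overlap, and the VitA-Col1a1+ chow library stood lowest. After thinning every cell to 2000 UMIs, a Rspo3 UMI was found in 81.1% and 79.0% of VitA+Col1a1+ mesenchymal cells of chow and DEN+WAD, in 50.0% of VitA-Col1a1+ DEN+WAD, in 40.04% of the library labelled VitA-Col1a1- and in 9.41% of VitA-Col1a1+ chow. Unthinned the shares were 98.4%, 97.9%, 74.2%, 67.0% and 32.8%. Macrophages of the library labelled VitA-Col1a1-, which should lack the gene, held a UMI in 0.442% of thinned cells and 2.46% of unthinned ones, with a median depth of 13880 UMIs.

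**Figure D1:**
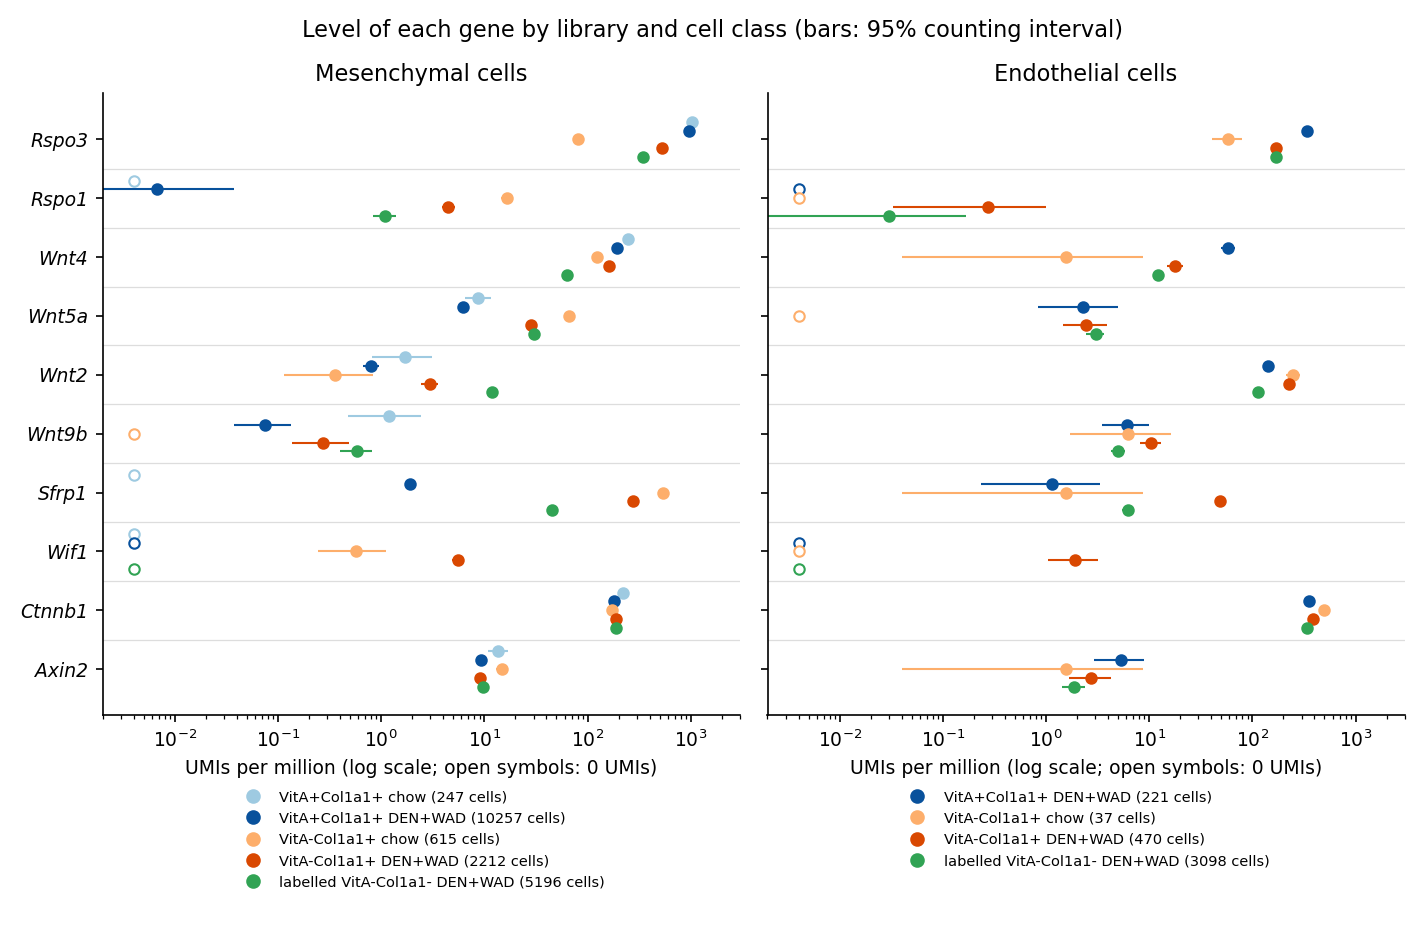
Level of each gene in CPM (log axis) in mesenchymal cells (left) and endothelial cells (right) of each library, with points for the summed level, bars for the 95% counting interval and open symbols for 0 UMIs. The 12 endothelial cells of VitA+Col1a1+ chow are left out. Rspo3 ranges from 81.3 to 1033 CPM among the mesenchymal points, whereas Ctnnb1 ranges from 173 to 221.1 CPM.

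Rspo1, the other R-spondin measured, was a gene of few cells. It lies at chr4:124986430-125009099 on the plus strand. Mesenchymal Rspo1 was at 16.6 CPM (14.6 to 18.9, 235 UMIs) in VitA-Col1a1+ chow, 4.49 CPM (3.86 to 5.19, 182 UMIs) in VitA-Col1a1+ DEN+WAD and 1.09 CPM (0.836 to 1.39, 64 UMIs) in the library labelled VitA-Col1a1-, with 1 UMI in VitA+Col1a1+ DEN+WAD and 0 in VitA+Col1a1+ chow. The VitA- libraries were thus above both VitA+ libraries. A UMI was present in 20.3% of VitA-Col1a1+ chow mesenchymal cells and 4.52% of VitA-Col1a1+ DEN+WAD ones unthinned, and in 2.81% and 0.417% thinned, with 0 of 678 thinned macrophages, which allows a share of up to 0.442%.

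Wnt4, a ligand known in kidney and stromal development, was carried by mesenchymal cells of every library. Its gene is at chr4:137277489-137299726 on the plus strand. Mesenchymal Wnt4 was at 246.9 CPM (234 to 260) in VitA+Col1a1+ chow, 193.4 CPM (191 to 196) in VitA+Col1a1+ DEN+WAD, 161.4 CPM (158 to 165) in VitA-Col1a1+ DEN+WAD, 123.2 CPM (117 to 129) in VitA-Col1a1+ chow and 63.3 CPM (61.3 to 65.4) in the library labelled VitA-Col1a1-. The order was that of Rspo3 except that the last 2 libraries changed places. Thinned shares of cells with Wnt4 were 38.5%, 30.5%, 26.0%, 18.6% and 12.4% in the same order, against 0.147% of macrophages, and unthinned shares ran from 32.0% to 96.8%, against 1.11% of macrophages.

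Wnt5a, a ligand mostly known for signalling without β-catenin, went the other way between gates. It lies at chr14:28504750-28527448 on the plus strand. Mesenchymal Wnt5a was at 66.7 CPM (62.5 to 71.1) in VitA-Col1a1+ chow, 30.3 CPM (28.9 to 31.8) in the library labelled VitA-Col1a1-, 28.1 CPM (26.5 to 29.8) in VitA-Col1a1+ DEN+WAD, 8.76 CPM (6.54 to 11.5) in VitA+Col1a1+ chow and 6.23 CPM (5.83 to 6.64) in VitA+Col1a1+ DEN+WAD. The intervals of both VitA- DEN+WAD libraries overlapped, as did those of both VitA+ libraries. Thinned shares of mesenchymal cells with Wnt5a ran from 1.12% in VitA+Col1a1+ DEN+WAD to 9.90% in VitA-Col1a1+ chow (unthinned, 6.23% and 56.4%), and 0 of 678 thinned macrophages held it.

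Sfrp1, a secreted Wnt binder, separated the gates most widely among members with a mean of 5 CPM or more over both sides. The gene is at chr8:23411502-23449632 on the plus strand. Mesenchymal Sfrp1 was at 537.2 CPM (525 to 549) in VitA-Col1a1+ chow, 277.6 CPM (272 to 283) in VitA-Col1a1+ DEN+WAD, 45.7 CPM (44.0 to 47.5) in the library labelled VitA-Col1a1- and 1.90 CPM (1.69 to 2.14) in VitA+Col1a1+ DEN+WAD, and no UMI was counted in VitA+Col1a1+ chow (up to 0.621 CPM). No interval overlapped another. Thinned, 33.8% and 15.3% of VitA-Col1a1+ mesenchymal cells of chow and DEN+WAD held a UMI, 4.73% in the library labelled VitA-Col1a1- and 0.178% in VitA+Col1a1+ DEN+WAD, the last not above the macrophage share of 0.295%. Unthinned shares were 57.7%, 25.8%, 9.80% and 0.780%, against 0.492% of macrophages, and in VitA+Col1a1+ DEN+WAD up to 55 Sfrp1 UMIs were in 1 cell.

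Wif1, which also binds Wnt ligands outside the cell, was found in a handful of cells. It lies at chr10:121033960-121100650 on the plus strand. In VitA-Col1a1+ DEN+WAD mesenchymal cells it had 225 UMIs (5.55 CPM, 4.85 to 6.32) in 14 cells, with up to 45 UMIs in a cell, and in VitA-Col1a1+ chow 8 UMIs in 3 cells (0.566 CPM). The mesenchymal cells of the other 3 libraries held none.

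Ctnnb1 and Axin2 varied least. Ctnnb1 lies at chr9:120929216-120960507 and Axin2 at chr11:108920349-108950783, both on the plus strand. Mesenchymal Ctnnb1 was at 221.1 CPM (209 to 233) in VitA+Col1a1+ chow, 190.3 CPM (186 to 195) in VitA-Col1a1+ DEN+WAD, 187.1 CPM (184 to 191) in the library labelled VitA-Col1a1-, 181.3 CPM (179 to 183) in VitA+Col1a1+ DEN+WAD and 173 CPM (166 to 180) in VitA-Col1a1+ chow. VitA+Col1a1+ chow stood above the rest, and the intervals of both VitA- DEN+WAD libraries overlapped, as did those of the lowest pair. Its thinned share lay between 29.1% and 32.9% of mesenchymal cells in all 5 libraries, with 22.3% of macrophages (unthinned, 74.1% to 97.2% and 61.1%). Axin2 was at 14.9 CPM (13.0 to 17.1) and 13.6 CPM (10.8 to 17.0) in VitA-Col1a1+ and VitA+Col1a1+ chow, and at 9.72 CPM (8.94 to 10.5), 9.31 CPM (8.82 to 9.81) and 9.12 CPM (8.22 to 10.1) in the library labelled VitA-Col1a1-, VitA+Col1a1+ DEN+WAD and VitA-Col1a1+ DEN+WAD. Both chow libraries were above the 3 DEN+WAD libraries, and within each of those sets the intervals overlapped.

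**Figure D2:**
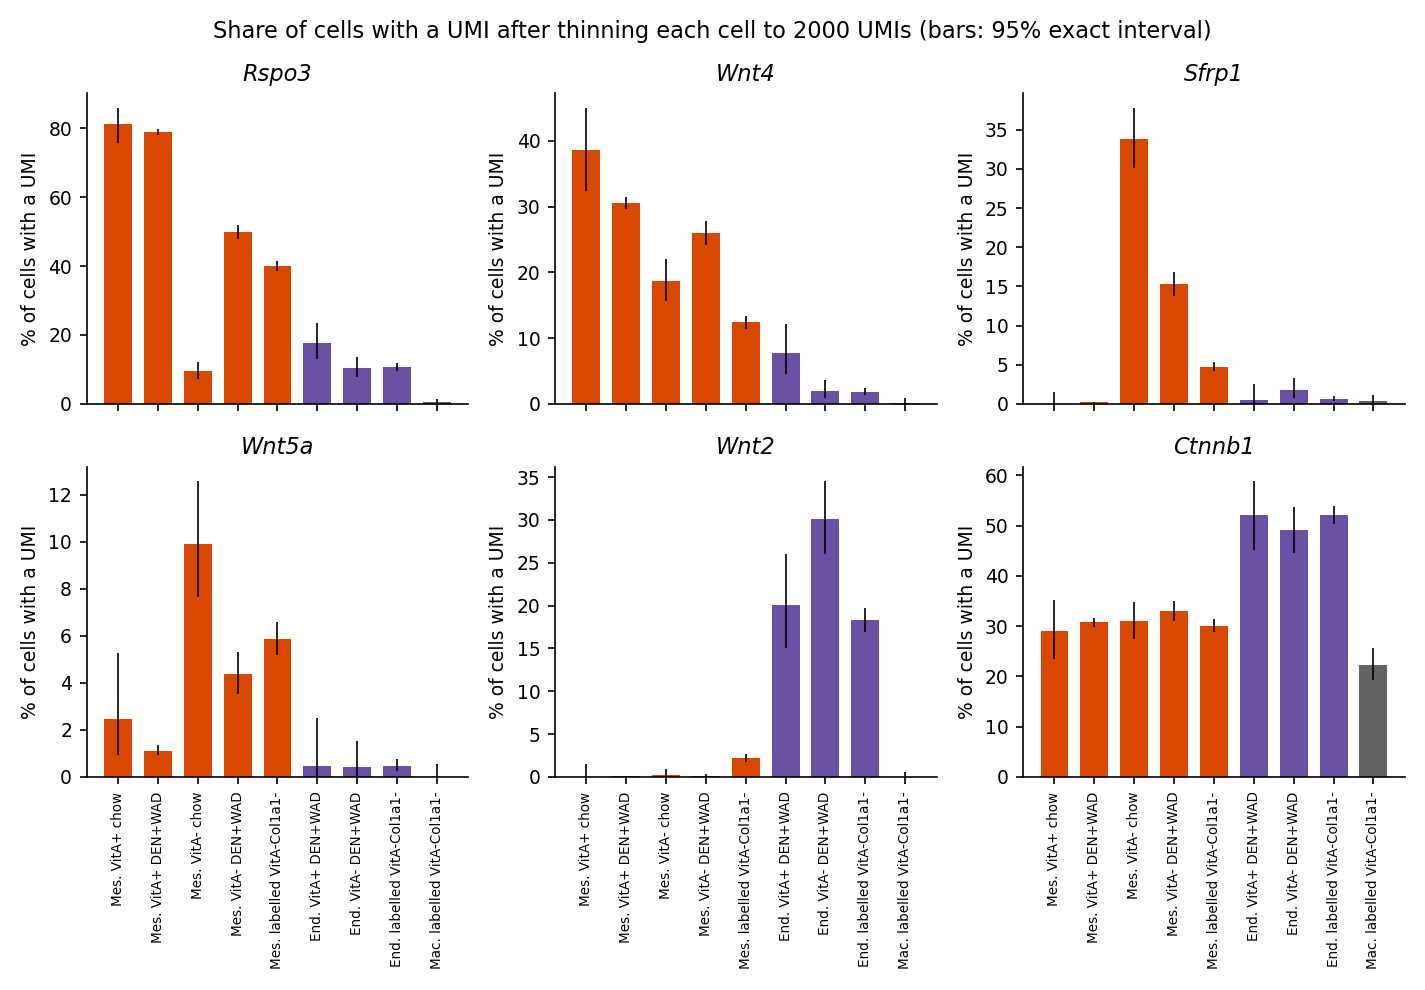
Percentage of cells with at least 1 UMI of 6 genes after each cell was thinned to 2000 UMIs, by library for mesenchymal (orange), endothelial (violet) and macrophage (grey) cells, with exact 95% intervals. Wnt2 is at 18.3% to 30.1% of endothelial cells and at most 2.16% of mesenchymal cells, and Rspo3 at 9.41% to 81.1% of mesenchymal cells.

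Wnt2 and Wnt9b, both ligands of the β-catenin branch, were found mainly in endothelial cells. Wnt2 lies at chr6:17988940-18030585 and Wnt9b at chr11:103727364-103749821, both on the minus strand. Endothelial Wnt2 was at 248.6 CPM (211 to 290, 37 cells) in VitA-Col1a1+ chow, 225.3 CPM (215 to 236) in VitA-Col1a1+ DEN+WAD, 143.2 CPM (129 to 158) in VitA+Col1a1+ DEN+WAD, 118.9 CPM (81.9 to 167, 12 cells) in VitA+Col1a1+ chow and 113.4 CPM (110 to 117) in the library labelled VitA-Col1a1-. The intervals of both VitA-Col1a1+ libraries overlapped, and that of VitA+Col1a1+ chow overlapped both its neighbours in the order. A Wnt2 UMI was present in 30.1%, 20.1% and 18.3% of thinned endothelial cells of VitA-Col1a1+ DEN+WAD, VitA+Col1a1+ DEN+WAD and the library labelled VitA-Col1a1- (unthinned, 67.0%, 51.1% and 38.8%), and in 0 of 678 thinned macrophages. Wnt9b was sparser, with 167, 76 and 16 UMIs in the endothelial cells of the library labelled VitA-Col1a1-, VitA-Col1a1+ DEN+WAD and VitA+Col1a1+ DEN+WAD, or 4.99 CPM (4.26 to 5.81), 10.4 CPM (8.20 to 13.0) and 6.08 CPM (3.47 to 9.87). The chow libraries gave 4 and 7 Wnt9b UMIs from 37 and 12 endothelial cells.

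Taken over whole libraries, without classes, Rspo3 was at 949.7 CPM in VitA+Col1a1+ DEN+WAD, 998.4 CPM in VitA+Col1a1+ chow, 466.4 CPM in VitA-Col1a1+ DEN+WAD, 79.4 CPM in VitA-Col1a1+ chow and 223.9 CPM in the library labelled VitA-Col1a1-. Wnt2 was at 2.60, 5.53, 35.2, 11.5 and 36.5 CPM in the same order, where endothelial cells made up 2.11%, 4.63%, 17.2%, 5.54% and 31.4% of cells. In 813 macrophages of the library labelled VitA-Col1a1- Ctnnb1 was at 137 CPM, Rspo3 at 1.76 CPM and Wnt4 at 0.92 CPM.

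Set against mesenchymal cells of the same library, endothelial cells had more Wnt2 and less of the stromal members. The comparison used a difference of 2-fold or more, counted for genes with a mean of 5 CPM or more over both sides. In VitA-Col1a1+ DEN+WAD, 8 members were counted, and Wnt2 was 76.1-fold (63.2 to 92.4), Wnt9b 38.4-fold (20.3 to 80.1) and Ctnnb1 2.02-fold (1.93 to 2.11) higher in endothelial cells, where 19.5% of all 10150 genes counted were higher. Lower by 2-fold or more were Rspo3, Wnt4, Wnt5a, Axin2 and Sfrp1, with endothelial to mesenchymal ratios of 0.320, 0.111, 0.0877, 0.300 and 0.175, against 13.9% of all genes. The Sfrp1 order rested on mesenchymal cells with 2 or more genes of a fibroblast list (the fibroblast stratum), without which the mesenchymal level was 3.35 CPM and the endothelial 48.6 CPM. In the library labelled VitA-Col1a1-, 7 members were counted. Wnt2 was 9.51-fold higher (8.77 to 10.3), where 14.2% of all 10351 genes were, and the same 5 members were lower, with ratios of 0.489, 0.195, 0.0995, 0.191 and 0.137, where 11.6% of all genes were. Sfrp1 turned here too without the stratum, to 6.28 against 1.78 CPM. Ctnnb1 was 1.81-fold higher there. In both libraries the endothelial side of the Sfrp1 turn kept the cells that met both class rules, without which its Sfrp1 was lower, as given below.

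Cells that met both class rules carried much of the stromal signal of the endothelial class. Without them endothelial Wnt4 was at 3.77 CPM in VitA+Col1a1+ DEN+WAD, 2.99 CPM in VitA-Col1a1+ DEN+WAD and 2.44 CPM in the library labelled VitA-Col1a1-, down from 58.1, 17.9 and 12.3 CPM with them. Endothelial Sfrp1 was at 2.36 and 2.02 CPM in the latter 2 libraries without them, down from 48.6 and 6.28 CPM, but in VitA+Col1a1+ DEN+WAD all of its 3 UMIs were in the other endothelial cells (1.89 CPM, and 1.14 CPM with the cells of both classes). Wnt5a then had at most 8 UMIs. Rspo3 was at 129 CPM (112 to 148) in VitA+Col1a1+ DEN+WAD, down from 335.3 CPM, and at 123 CPM (114 to 131) and 123 CPM (119 to 127) in the other 2, down from 168.9 CPM in each. Wnt2 was at 170, 244 and 119 CPM, from 143.2, 225.3 and 113.4 CPM. Conversely, mesenchymal Wnt2 came from the same cells: in the library labelled VitA-Col1a1- the 443 cells of both classes held 657 of 703 mesenchymal Wnt2 UMIs (91.2 CPM), and the other 4753 mesenchymal cells were at 0.888 CPM. Whether such barcodes held 2 cells was not tested.

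Among endothelial cells outside the mesenchymal class, Rspo3, Wnt2 and Wnt9b were all higher where pericentral genes were found. A cell was put in the central stratum when it held 2 or more of Kit, Thbd, Cdh13 and Selp, genes known from the central side of the lobule. Rspo3 was at 254 CPM (246 to 264) in 1357 central cells and 4.77 CPM (3.69 to 6.07) in 1298 others of the library labelled VitA-Col1a1-, at 168 CPM (156 to 180) in 290 and 9.35 CPM (5.45 to 15) in 150 of VitA-Col1a1+ DEN+WAD, and at 278 CPM (240 to 320) in 72 and 14.5 CPM (7.73 to 24.8) in 105 of VitA+Col1a1+ DEN+WAD. The 3 central strata were all above the 3 others, by 53.4-fold (41.8 to 69.2), 18.0-fold (11.1 to 31) and 19.1-fold (10.9 to 36.6). Wnt2 was 7.46-fold (6.72 to 8.30), 2.62-fold (2.26 to 3.05) and 2.92-fold (2.24 to 3.83) higher in the central strata of the same libraries. Of 133 Wnt9b UMIs in the library labelled VitA-Col1a1-, 132 were in central cells (10.6 CPM), as were 66 of 67 in VitA-Col1a1+ DEN+WAD (14.5 CPM). Ctnnb1 was 1.44-fold (1.38 to 1.5) higher in central cells of the library labelled VitA-Col1a1- and at 0.929 (0.853 to 1.01) and 0.871 (0.740 to 1.02) of the others' level in the other 2.

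**Figure D3:**
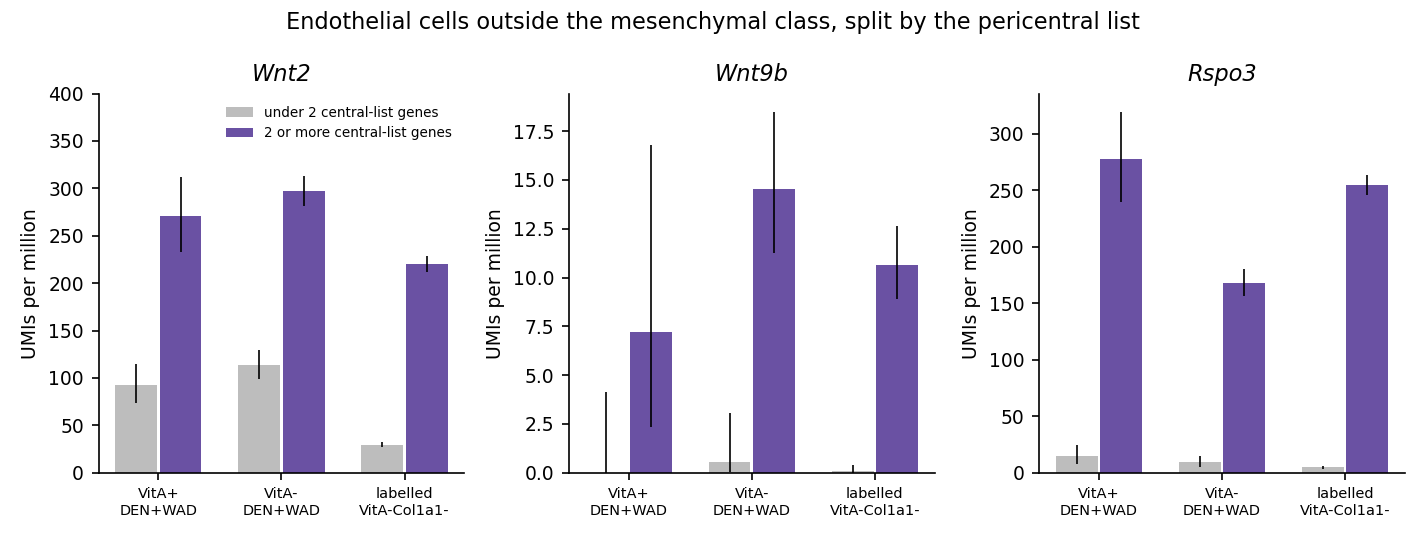
Wnt2, Wnt9b and Rspo3 in CPM in endothelial cells outside the mesenchymal class, with 2 or more central-list genes (violet) or fewer (grey), in the 3 DEN+WAD libraries, with 95% counting intervals. Each violet bar is above its grey neighbour, with overlapping intervals for Wnt9b in VitA+Col1a1+ DEN+WAD. Rspo3 is at 254 against 4.77 CPM in the library labelled VitA-Col1a1-.

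The split rests on detecting genes and so on depth, and with the lists read from cells thinned to 2000 UMIs, a setting chosen after seeing the data, the Rspo3 ratios were 12.1, 4.52 and 24.6 and the Wnt2 ratios 4.35, 2.07 and 2.84. The endothelial cells of the library labelled VitA-Col1a1- were also split by both zonal lists, the portal one being Ltbp4, Msr1, Efnb2, Adam23, Ntn4 and Dll4. In 62 cells with the central list alone Rspo3 was at 1800 CPM, Wnt2 at 449 CPM (388 to 516) and Wnt9b at 66.4 CPM (44.5 to 95.4). In 1295 cells with both lists they were at 198, 212 and 8.61 CPM, and in 1051 cells with the portal list alone at 6.25, 43.3 and 0.112 CPM. All 3 genes thus ran from the central to the portal stratum, and 247 cells with neither list had 2.05 CPM of Rspo3 and 4.10 CPM of Wnt2. Msr1 of the portal list was at 266 CPM in macrophages of this library, and the part of macrophage RNA in these strata was not tested.

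Wnt9b and Rspo3 shared cells. In the library labelled VitA-Col1a1-, 57 endothelial cells with a Wnt9b UMI had 2426 CPM of Rspo3 and 530 CPM of Wnt2, against 64.6 and 109 CPM in the cells without. In VitA-Col1a1+ DEN+WAD, 27 such cells had 1012 CPM of Rspo3 and 655 CPM of Wnt2, against 53.2 and 212 CPM. Cells with Wnt9b were deeper, with median UMI counts of 11074 against 8238 and of 15981 against 13523. Vessel genes told Wnt2 from its 2 companions: endothelial cells of the library labelled VitA-Col1a1- with 2 or more of Vwf, Vwa1, Cd34 and Sox17 (488 cells) had more Rspo3 (294 against 82.5 CPM) and Wnt9b (18.2 against 1.98 CPM) than the others but less Wnt2 (104 against 123 CPM). In VitA-Col1a1+ DEN+WAD the 89 such cells had 166 against 107 CPM of Rspo3, 18.2 against 7.86 CPM of Wnt9b and 100 against 295 CPM of Wnt2. In VitA+Col1a1+ DEN+WAD, 27 such cells had 285 against 92 CPM of Rspo3 and 94.1 against 189 CPM of Wnt2, but none of the 5 Wnt9b UMIs.

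Within mesenchymal cells, Sfrp1, Rspo1, Wif1 and Wnt5a went with fibroblast genes and Rspo3 went against them. The fibroblast stratum was cells with 2 or more of Thy1, Fbln2, Cd34, Dpt, Clec3b, Mfap4, Pi16, Entpd2 and Gli1, and it held 90.7% of the mesenchymal cells of VitA-Col1a1+ chow, 52.9% of VitA-Col1a1+ DEN+WAD, 47.1% of the library labelled VitA-Col1a1- and 6.21% of VitA+Col1a1+ DEN+WAD. Sfrp1 was at 573 CPM in it and 5.56 CPM outside it in VitA-Col1a1+ chow, at 453 and 3.35 CPM in VitA-Col1a1+ DEN+WAD, at 76.1 and 1.78 CPM in the library labelled VitA-Col1a1- and at 17.7 and 0.436 CPM in VitA+Col1a1+ DEN+WAD. All 235 Rspo1 UMIs of VitA-Col1a1+ chow, all 182 of VitA-Col1a1+ DEN+WAD and 63 of 64 of the library labelled VitA-Col1a1- were in the stratum, as were 224 of 225 Wif1 UMIs of VitA-Col1a1+ DEN+WAD. Wnt5a was 3.37-fold to 5.75-fold higher in the stratum in the 4 libraries. Rspo3 had the opposite order in each of them, at 47.2 against 584 CPM in VitA-Col1a1+ chow, 264 against 940 CPM in VitA-Col1a1+ DEN+WAD, 282 against 438 CPM in the library labelled VitA-Col1a1- and 669 against 988 CPM in VitA+Col1a1+ DEN+WAD. Wnt4 was lower in the stratum too, by less, with ratios of 0.604, 0.686, 0.741 and 0.905. Ctnnb1 was within 0.922 to 1.05 of the other cells' level. Cells of the stratum were deeper in every library, with median UMI counts of 13231 to 23128 against 8270 to 17785. With the list read from cells thinned to 2000 UMIs, the ratio was still above 1 for Sfrp1 (6.09 to 181) and Wnt5a (1.29 to 8.78) and below 1 for Rspo3 (0.154 to 0.616). The Wnt4 ratio was then 0.627 in VitA-Col1a1+ DEN+WAD but 1.17 in VitA+Col1a1+ DEN+WAD, 1.13 in the library labelled VitA-Col1a1- and level in VitA-Col1a1+ chow, so its order depended on how the stratum was read.

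**Figure D4:**
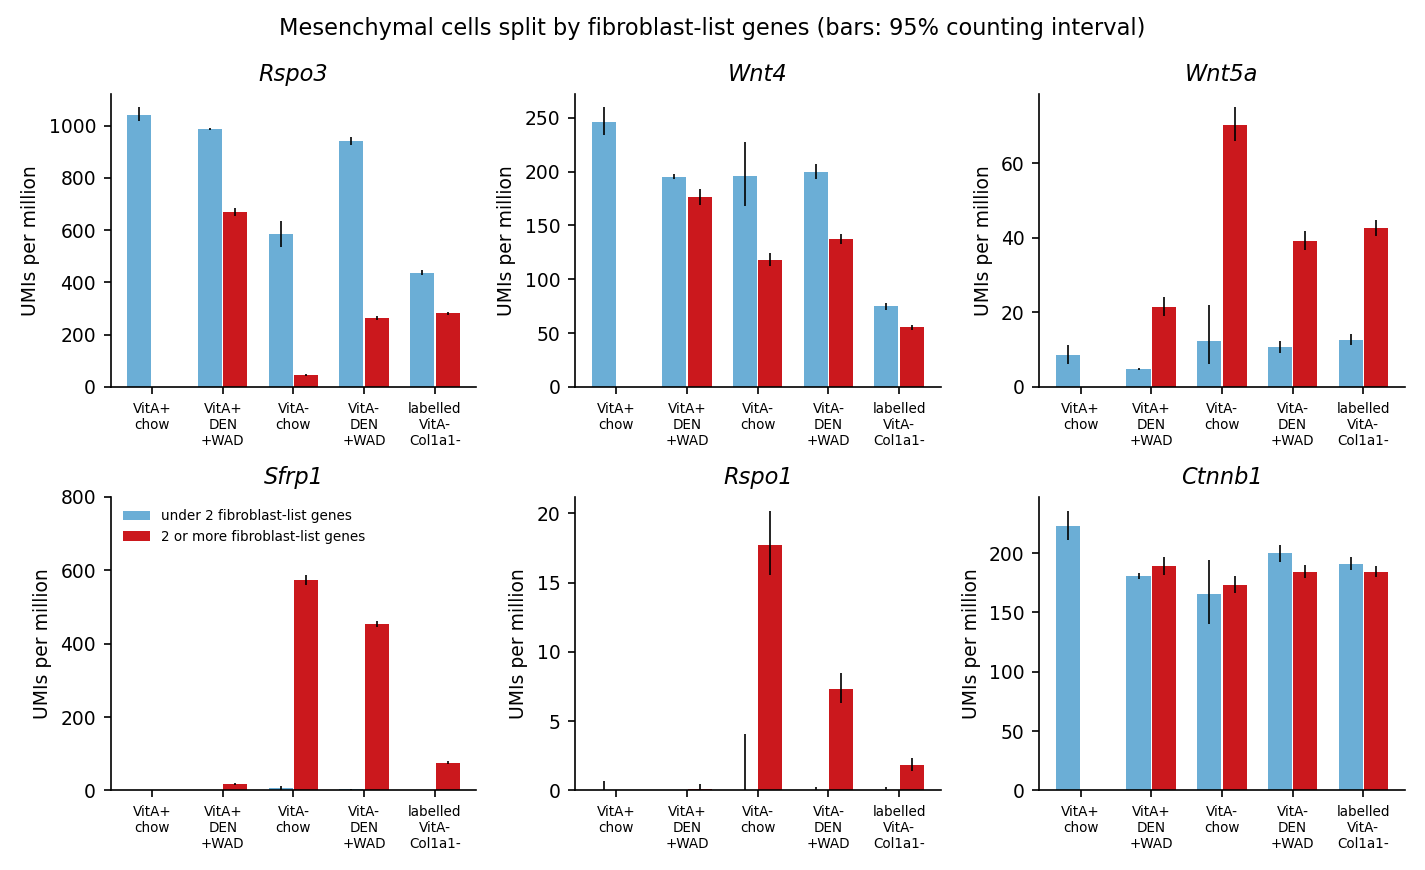
Level in CPM of 6 genes in mesenchymal cells with 2 or more fibroblast-list genes (red) or fewer (blue), by library, with 95% counting intervals. The stratum of VitA+Col1a1+ chow had 12 cells and is not drawn. Rspo3 is higher in the blue bars and Wnt5a and Sfrp1 in the red ones of the same library, as is Rspo1 except in VitA+Col1a1+ DEN+WAD, where it had 1 UMI in all, while the Ctnnb1 bars are close.

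Rspo3 and Sfrp1 were also read cell by cell. Of thinned VitA-Col1a1+ DEN+WAD mesenchymal cells, 2.23% of those with Rspo3 also held Sfrp1, against 28.3% of those without Rspo3. In VitA-Col1a1+ chow the shares were 15.8% and 35.7%. The library labelled VitA-Col1a1- had 2.22% and 6.41%. Wnt5a and Sfrp1 had no single order: 23.4% of cells with Wnt5a held Sfrp1 in VitA-Col1a1+ DEN+WAD, against 14.9% of those without, whereas in VitA-Col1a1+ chow the shares were 28.3% and 34.4%. In VitA-Col1a1+ DEN+WAD, mesenchymal cells with a Sfrp1 UMI had 215 CPM of Lrat, the retinol esterifying enzyme of HSC, against 932 CPM in cells without. They had 946 CPM of Mfap4, a microfibril protein, against 101 CPM. Their Rspo3 was at 154 CPM against 690 CPM, and their Rspo1 at 13.5 CPM against 0.601 CPM. Cells with Sfrp1 were deeper, with a median of 20727 against 16557.5 UMIs.

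Lists of genes known from zones of HSC split Axin2 and Wnt5a among mesenchymal cells. The strata took all mesenchymal cells of a library, those of the fibroblast stratum included, and were not read again from thinned cells. In VitA+Col1a1+ DEN+WAD, 714 mesenchymal cells with 2 or more of the central genes Spon2, Podn, Adamtsl2, Loxl1, Pth1r and Sox4 and fewer than 2 of the portal genes Ngfr, Igfbp3, Il34, Itgb3 and Fgf11 had 13.6 CPM of Axin2 (11.4 to 16.2), 12.7 CPM of Wnt5a (10.5 to 15.1) and 1183 CPM of Rspo3 (1161 to 1205). The 1728 cells with the portal list alone had 6.1 CPM of Axin2 (5.08 to 7.26), 3.51 CPM of Wnt5a (2.75 to 4.41) and 739 CPM of Rspo3 (727 to 751). In the library labelled VitA-Col1a1- the same strata had 16.4 against 2.45 CPM of Axin2, 59.1 against 4.69 CPM of Wnt5a and 377 against 247 CPM of Rspo3. In VitA-Col1a1+ DEN+WAD Axin2 was at 10.6 CPM (8.84 to 12.6) against 7.40 CPM (3.70 to 13.2), which overlap. Wnt5a there was at 38.3 against 1.35 CPM, and Rspo3 was lower in the central stratum, at 475 against 556 CPM. Wnt4 was at 211 against 200 CPM in VitA+Col1a1+ DEN+WAD, with overlapping intervals. Lrat was found in all but 113 of the 10257 mesenchymal cells of that library, where Rspo3 was at 962 CPM with Lrat and 233 CPM without, the latter cells having a median of 845 UMIs.

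DEN+WAD was set against chow within each gate to ask how sorted mesenchymal cells differed under the tumor-promoting regimen. In VitA+Col1a1+ cells, 5 members could be counted and none differed by 2-fold, where 1.03% of all 9475 genes were higher and 2.34% lower by 2-fold. The DEN+WAD to chow ratio was 0.929 (0.906 to 0.954) for Rspo3, 0.783 (0.743 to 0.826) for Wnt4, 0.820 (0.776 to 0.867) for Ctnnb1, 0.711 (0.538 to 0.960) for Wnt5a and 0.682 (0.545 to 0.865) for Axin2. All 5 were lower in DEN+WAD by this scaling, with a median log2 ratio of -0.35 against -0.06 over all genes. TMM scaling moved every gene of this comparison by 0.23 on the log2 scale, and Rspo3 was then higher, with a ratio of 1.09. In VitA-Col1a1+ cells 7 members could be counted. Rspo3 was 6.5-fold higher in DEN+WAD (6.12 to 6.90), where 2.66% of all 9959 genes were higher. Rspo1 was lower, at 0.270 (0.221 to 0.329) of the chow level, and Wnt5a at 0.421 (0.386 to 0.460), where 4.81% of all genes were lower. Sfrp1 came close to the fold, at 0.517 (0.502 to 0.532), Axin2 was at 0.611 (0.515 to 0.727), and Ctnnb1 and Wnt4 were 1.10-fold (1.05 to 1.15) and 1.31-fold (1.24 to 1.38) higher.

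**Figure D5:**
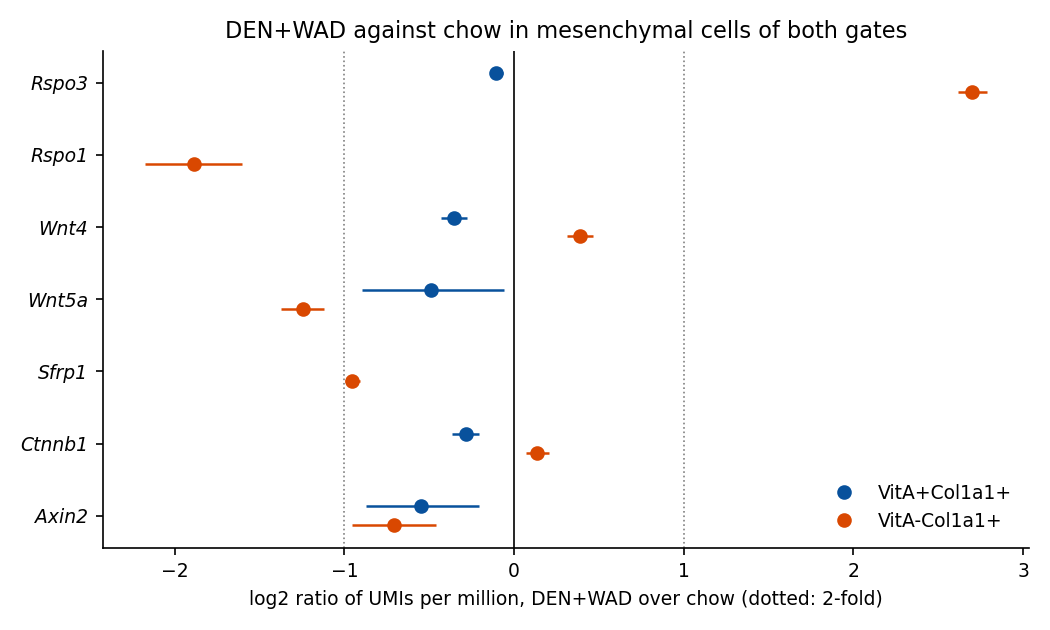
Log2 ratio of DEN+WAD over chow in mesenchymal cells of the VitA+Col1a1+ gate (blue) and the VitA-Col1a1+ gate (orange) for members with a mean of 5 CPM or more, with 95% counting intervals and dotted lines at 2-fold. Rspo3 lies at -0.11 in the VitA+Col1a1+ gate (0.13 with TMM scaling) and at 2.70 in the VitA-Col1a1+ gate.

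Cell makeup moved with the VitA-Col1a1+ comparison, and it cannot be told apart from RNA per cell in class sums. Fibroblast-list genes summed to 3615 CPM in mesenchymal cells of VitA-Col1a1+ chow, with 8 of 9 at 5 CPM or more, and to 1455 CPM with 7 of 9 in DEN+WAD, while the 10 HSC genes, all at 5 CPM or more, summed to 3269 and 8913 CPM. Within the fibroblast stratum Rspo3 was 5.61-fold higher in DEN+WAD (5.16 to 6.1), Rspo1 was at 0.414 (0.34 to 0.505) of the chow level and Wnt5a at 0.557 (0.509 to 0.611), while Sfrp1 was at 0.790. Outside it, where chow had only 57 cells, Rspo3 was 1.61-fold higher (1.48 to 1.76), Wnt4 was at 1.02 (0.876 to 1.19) and no member passed 2-fold. With the list read from thinned cells the Rspo3 ratios were 3.44 inside (605 and 421 cells) and 3.52 outside (1553 and 185 cells). Wnt5a was then at 0.632 inside and 0.363 outside, and Sfrp1 at 1.15 inside and 0.225 outside. Rspo1 was then at 0.595 (0.484 to 0.730) inside, no longer past 2-fold. Rspo3 was thus higher in DEN+WAD under each split, at 1.61-fold to 5.61-fold, and less so than in the class as a whole.

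VitA-Col1a1+ cells were then set against VitA+Col1a1+ cells from the same kind of liver. In chow liver 7 members were counted. Sfrp1, Rspo1 and Wnt5a were higher in VitA- cells, where 11% of all 10005 genes were higher, with Wnt5a at 7.61-fold (5.76 to 10.3). Sfrp1 and Rspo1 had no UMI in the VitA+ cells, and a floor of 3 UMIs there gave ratios of 1063 and 32.9. The lower limits of their counting intervals were 864.6-fold and 26.6-fold. Rspo3 was 12.7-fold lower in VitA- cells and Wnt4 was at 0.499 (0.465 to 0.535) of the VitA+ level, where 6.13% of all genes were lower. Axin2 did not differ beyond its interval (1.09, 0.843 to 1.43), and Ctnnb1 was at 0.782. In DEN+WAD liver 6 members were counted, and Sfrp1 was 146-fold (129 to 165) and Wnt5a 4.51-fold (4.13 to 4.92) higher in VitA- cells, where 6.27% of all 9659 genes were. No member was lower by 2-fold, where 1.51% of all genes were: Rspo3 was at 0.550, Wnt4 at 0.835, Ctnnb1 at 1.05 (0.955 with TMM scaling) and Axin2 at 0.980.

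The gap between gates differed inside and outside the fibroblast stratum. Inside it, in DEN+WAD liver, Rspo3 of VitA- cells was at 0.395 (0.383 to 0.408) of the VitA+ level, farther apart than in the class as a whole, Wnt4 was at 0.777, and Wnt5a was 1.83-fold (1.59 to 2.10) and Sfrp1 25.6-fold (22.5 to 29.4) higher. With the list read from thinned cells these were 0.251, 0.510, 0.892 (0.705 to 1.14) and 6.86, the VitA+ stratum then having 76 cells. Outside it Rspo3 of VitA- cells was at 0.952 (0.936 to 0.968) of the VitA+ level, Wnt4 at 1.02 (0.987 to 1.06) and Axin2 at 1.01 (0.849 to 1.2), whereas Wnt5a was 2.22-fold (1.86 to 2.64) and Sfrp1 7.69-fold (5.20 to 11.3) higher. In chow liver Rspo3 was at 0.560 (0.511 to 0.613), Wnt4 at 0.795 (0.676 to 0.931) and Wnt5a at 1.45 (0.677 to 2.82). With the list read from thinned cells, Rspo3 outside it was at 0.753 in DEN+WAD and 0.2 in chow, and Wnt5a at 3.48 and 6.28, while Sfrp1 in DEN+WAD was 39.8-fold higher.

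The library labelled VitA-Col1a1- was set against VitA-Col1a1+ DEN+WAD in the same class. Of 7 members counted, Wnt2 was 4.03-fold higher (3.32 to 4.93), where 5.03% of all 10002 genes were, and that rested on the cells of both classes, without which Wnt2 was at 0.888 and 0.707 CPM. Wnt4 was at 0.392 (0.377 to 0.408) and Sfrp1 at 0.165 (0.158 to 0.172) of the VitA-Col1a1+ level, where 3.78% of all genes were lower. Both were also lower within the fibroblast stratum, Wnt4 at 0.404 and Sfrp1 at 0.168, and Wnt4 was at 0.374 outside it. Rspo3 was at 0.654 in all, at 1.06 inside the stratum (2.09 with the list read from thinned cells) and at 0.466 outside it (0.522). In all, Ctnnb1, Wnt5a and Axin2 were at 0.983, 1.08 and 1.06. This library also differed in its Cell Ranger version and had hepatocyte genes summing to 850 CPM in its mesenchymal cells, against 14.4 CPM in VitA-Col1a1+ DEN+WAD, and the part of either in these values was not tested.

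The rest of the pathway was read from lists. Of 15 receptors, 11 could be counted in the VitA-Col1a1+ comparison of DEN+WAD with chow, and 4 were lower by 2-fold or more, where 4.81% of all genes were, among them Fzd4 (45.1 against 99.3 CPM), a Frizzled receptor, while Ryk, a receptor-like kinase that binds Wnt, was at 353 and 343 CPM. The others were Fzd2, Ror1 and Ror2. Between the gates of chow liver, a comparison that shares the VitA-Col1a1+ chow cells, 6 of 11 receptors were higher in VitA- cells, where 11% of all genes were, Fzd4 being at 99.3 against 34 CPM. In VitA+Col1a1+ cells 2 of 8 receptors were lower in DEN+WAD, where 2.34% of all genes were, Fzd5 and the co-receptor Lrp5 (44.9 against 95 CPM).

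Besides Sfrp1, the secreted inhibitors included Dkk3, a Dickkopf-family protein, at 161 CPM in VitA-Col1a1+ chow, 83.7 CPM in VitA-Col1a1+ DEN+WAD, 29.6 CPM in VitA+Col1a1+ DEN+WAD, 20.4 CPM in VitA+Col1a1+ chow and 151 CPM in the library labelled VitA-Col1a1-, where Sfrp1 was at 45.7 CPM. Of 13 listed inhibitors, 5 were counted between the gates of chow liver and 4 were higher in VitA- cells, where 11% of all genes were, Sfrp1, Sfrp2, Dkk3 and Kremen1, while Frzb, another SFRP-type binder, was at 74.4 against 106 CPM. Wls, the carrier that brings Wnt ligands to the cell surface, was level, at 168 to 204 CPM in the mesenchymal cells of the 5 libraries. Among the 10 cytoplasmic genes, which include Ctnnb1 and Axin2, all were counted and none differed by 2-fold in any of the 5 mesenchymal comparisons.

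Target genes did not follow one order. Of 14 common targets, 5 were counted in VitA-Col1a1+ DEN+WAD against chow and none differed by 2-fold, where Nkd1, an inhibitor induced by the pathway, was at 230 and 161 CPM and Axin2 at 9.12 and 14.9 CPM. Nkd1 was highest at 337 CPM in VitA+Col1a1+ chow and lowest in the library labelled VitA-Col1a1- at 133 CPM. In that library Ccnd1, a cyclin, was at 171 CPM against 52.3 CPM in VitA-Col1a1+ DEN+WAD. Endothelial cells had less Nkd1 than mesenchymal cells in both libraries compared, at 42.4 against 133 CPM and 79.7 against 230 CPM, and more Apc, a scaffold of β-catenin breakdown, at 156 against 58.2 CPM and 169 against 33.3 CPM.

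Of 19 ligands, 2 to 4 could be counted in a mesenchymal comparison. In VitA-Col1a1+ DEN+WAD against chow 4 were counted, of which 2 were lower by 2-fold or more, Wnt5a and Wnt9a, the latter at 2.79 against 7.85 CPM, and the median log2 ratio was -0.74 beside -0.08 over all genes counted. Of 5 R-spondin receptors and their ligases, 3 were counted there with a median log2 ratio of -0.97, and 1 was lower by 2-fold or more, Lgr6, a receptor of R-spondins, at 1.87 against 12.5 CPM. Of 7 nuclear partners of β-catenin, 5 were counted and none differed by 2-fold, with a median log2 ratio of -0.60. In VitA+Col1a1+ DEN+WAD against chow 6 of the 7 were counted and 1 was lower by 2-fold or more, Tcf7, a transcription factor that is also on the target list, at 4.40 against 11.1 CPM. Of 4 pericentral targets known from hepatocytes, 3 were counted between the classes of the library labelled VitA-Col1a1-, in both directions. Glul, glutamine synthetase, was at 261 CPM in endothelial and 94.3 CPM in mesenchymal cells, whereas Oat, ornithine aminotransferase, was at 85.8 against 324 CPM and Cyp2e1, a cytochrome P450, at 10.6 against 55.9 CPM.

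The genes most like each member in pattern were found over 8 library and class points, among 6577 genes with a mean of 20 CPM or more, as a description of points that share libraries. For Wnt2 they were Ushbp1, Gimap6 and Flt4 (Pearson r of log2 levels, 0.998 to 0.999), and for Rspo3 Acap1, Kcnj8 and Plvap (0.984 to 0.993). Sfrp1 was closest to Serpinf1, Fmod and Cpxm2 (0.985 to 0.990), Wnt5a to Gpm6b, Lama2 and Thbs2 (0.990 to 0.991), and Wnt4 to Sema6c, Foxf1 and Ccbe1 (0.993 to 0.995). Rspo1 had Tm7sf3 nearest (0.982), Axin2 Kank2 (0.994), Wnt9b Numb (0.995) and Ctnnb1 Pxn (0.996), and Wif1, with counts in few cells, Alkbh1 (0.914).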

How the data were processed

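Livers of the mice were digested by the authors, sorted into 5 fractions and sequenced with 10x Genomics 3' droplets (the labels name kit versions that differ). The authors aligned reads to mm10 and counted UMIs with Cell Ranger, version 3.1.0 per the file headers of 4 libraries and 6.1.2 in that of the library labelled VitA-Col1a1-. The authors deposited unnormalized UMI counts for each gene in each barcode. All barcodes were taken as cells, and no doublet caller was run. The lowest total of a barcode was 500 UMIs. The authors ran Cell Ranger at its default settings and judged cell quality from barcode rank plots.

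Groups came from the labels. Members and lists were chosen with earlier results of these data known. For each class, UMIs were summed over cells and scaled to 1000000 (CPM), with exact Poisson intervals for levels, conditional binomial intervals for ratios and Clopper-Pearson intervals for shares, all at 95% and covering counting error only. The intervals of levels and ratios take UMIs as independent, so they are too narrow where a few cells hold many UMIs of a gene. With 1 library per group no test, p-value or replicate SD was possible. A gene was counted at a mean of 5 CPM over both sides and called at 2-fold, with a floor of 3 UMIs in place of 0. No ratio was given where both sides were at or under the floor. Shares were taken after thinning each cell to 2000 UMIs (seed 7), leaving out 172, 4, 106, 21 and 1439 shallower cells of VitA+Col1a1+ DEN+WAD and chow, VitA-Col1a1+ DEN+WAD and chow, and the library labelled VitA-Col1a1-. Cells scoring 15 to 25 per 10000, near the mesenchymal limit of 20, numbered 14, 0, 19, 3 and 275 in the same order. The code for class ratios was run on simulated Poisson counts, which hold no spread between cells or libraries and so cannot show it.

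Members were named in every comparison. Other pathway genes came from 10 lists of 86 genes, with up to 4 examples by mean level, and receptors and inhibitors named for passing 2-fold were picked after their values were seen. Likeness was Pearson's r of log2(CPM + 1) over classes of 50 or more cells. Positions are 1-based from GENCODE M21 on GRCm38, in which 30934 of 31053 identifiers (99.6%) were found. Alternatives covered the class limits, scaling by edgeR's TMM or size factors, folds, level minimums, cell strata and thinning. Python 3.11.15, numpy 2.4.6, scipy 1.17.1, pandas 2.3.3 and matplotlib 3.10.9 were used, with R 4.3.3 and edgeR 4.0.16 for TMM.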

Additional observations from a re-analysis of the deposited data

Results flagged for a closer look

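Effects of DEN+WAD over chow went in opposite directions in the 2 gates for 3 members, as log2 ratios of mesenchymal levels between single libraries. Rspo3 was at -0.106 in VitA+Col1a1+ cells and 2.7 in VitA-Col1a1+ cells, but with TMM scaling at 0.13 and 2.83, which is the same direction in both. Wnt4 was at -0.353 and 0.39, and Ctnnb1 at -0.286 and 0.137, in the same order (with TMM scaling, -0.12 and 0.52, and -0.053 and 0.27). These differences between gates were not tested, since each gate had 1 library per condition. Outside the fibroblast stratum the ratio itself was 0.792 and 1.02 for Wnt4, and 0.947 and 1.61 for Rspo3, again in that order. With the list read from thinned cells the Rspo3 ratio of VitA-Col1a1+ was higher there, as given above.

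Wnt4 also appeared in cells that met neither class rule in VitA-Col1a1+ chow, at 382 CPM (307 to 471) in 17 cells, above the 123 CPM of mesenchymal and the 1.57 CPM of endothelial cells there. Of its 88 UMIs, 79 were in 1 barcode with 102759 UMIs. The cells of neither class in the other 4 libraries had 3.18 to 42.8 CPM of Wnt4.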

How the results depend on the processing

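Over 16 alternatives, 859 of 1036 member ratios stayed inside the reported counting interval, 175 left it, and 2 that were past 2-fold turned direction. Alternatives that changed only the fold or the level minimum could not move a ratio, and their ratios are among the 859. Both turns came without fibroblast-stratum cells among the mesenchymal cells, where endothelial Sfrp1 was higher than mesenchymal. The log2 ratios were 1.82 in the library labelled VitA-Col1a1- and 3.86 in VitA-Col1a1+ DEN+WAD. The endothelial side of each kept the cells that met both class rules. In all, 22 ratios crossed 1, of which 6 were of counted members with a reported interval off 1. Beside both Sfrp1 ratios these were, with TMM scaling, Rspo3 for DEN+WAD against chow in VitA+Col1a1+ (0.929 to 1.09) and Ctnnb1 for VitA- against VitA+ in DEN+WAD (1.05 to 0.955). Without the fibroblast stratum Wnt4 of the latter comparison went from 0.835 to 1.02, and on whole libraries Wnt5a of the library labelled VitA-Col1a1- against VitA-Col1a1+ from 1.08 to 0.718. TMM moved all genes by -0.24 to 0.23 on the log2 scale, depending on the comparison. Counts of members past 2-fold kept within 1.5 times of the reported one in 98 of 111 cases. Without the fibroblast stratum, the count for DEN+WAD against chow in VitA-Col1a1+ went from 3 to 0, for VitA- against VitA+ in chow from 5 to 0 and in DEN+WAD from 2 to 1 (Wnt5a). On whole libraries the first was 5 and the last 4. At a minimum of 1 CPM counts were 1 for DEN+WAD against chow in VitA+Col1a1+ (0 reported) and 5 each for DEN+WAD against chow in VitA-Col1a1+, VitA- against VitA+ in DEN+WAD, and the library labelled VitA-Col1a1- against VitA-Col1a1+. At 20 CPM, VitA- against VitA+ in DEN+WAD gave 1 (Sfrp1) and endothelial against mesenchymal in VitA-Col1a1+ DEN+WAD 5 of a reported 8. A 1.5-fold limit gave 5 for DEN+WAD against chow in VitA-Col1a1+. Members in 10% or more of cells of a class numbered 5 thinned and 8 unthinned. Of 122 ratios in strata, 58 stayed inside the interval when lists were read from thinned cells, a setting added after seeing the data. The cause was not tested. No paired analysis was possible because each group was 1 library and the labels number no replicates, and no replicate could be left out. Depth limits Wnt9b, Rspo1 and Wif1, whose mesenchymal or endothelial levels rest on under 250 UMIs in each library, and all chow endothelial values, which rest on 12 and 37 cells.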
